A study of Mus musculus with 26 samples.

Results

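The subject was mir-137 and mir-138, a pair of neuronal miRNAs, in the hippocampus of mice after a brief swim. They were chosen by name from the table of small RNA counts, as the miRBase entries mmu-mir-137, mmu-mir-138-1 and mmu-mir-138-2. The rule found 3 entries among 1054 miRNA entries, and all 3 were among the 463 that passed a filter on low counts. The 26 libraries came from male C57BL/6J mice aged 2 to 3 months, with tissue of both hemispheres. Control mice (CTRL) stayed in the home cage, and swim mice (Swim) swam for 6 min in water at 18 °C and were collected 45 mins after the swim began. The libraries were 8 of ventral hippocampus (vHC) from control mice, 6 of vHC from swim mice, 6 of dorsal hippocampus (dHC) from control mice and 6 of dHC from swim mice. Each library also belonged to 1 of 3 blocks, which the labels give as dates, and every block held all 4 groups. The labels do not tell which dHC and vHC libraries came from the same mouse.

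A miRNA is cut from a hairpin-shaped precursor and guides a silencing complex to mRNAs that pair with its seed, bases 2 to 8 of the mature strand. Bound mRNAs are translated less or degraded sooner. Both miRNAs are enriched in the brain. mir-137 is known for roles in the maturation of neurons and in the release of synaptic vesicles. mir-138 is found in dendrites near synapses and is known for limiting the growth of dendritic spines. mir-138 is encoded by a pair of genes on different chromosomes, whereas mir-137 has a single gene.

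The mature strands are shown because their seeds define which mRNAs each miRNA can pair with, and because a shared strand decides whether the mir-138 entries can be told apart. Capitals mark the seed. The sequences are those of RefSeq for GRCm38.p6, and entries were found for all 3 members.
mmu-miR-137-3p: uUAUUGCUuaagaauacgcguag
mmu-miR-137-5p: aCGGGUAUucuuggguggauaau
mmu-miR-138-5p: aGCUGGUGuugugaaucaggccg
mmu-miR-138-1-3p: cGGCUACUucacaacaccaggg
mmu-miR-138-2-3p: gCUAUUUCacgacaccagggu

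The strand usually loaded into the silencing complex is the 3p strand for mir-137 and the 5p strand for mir-138. The 5 seeds were all different, so mir-137 and mir-138 share no seed. Of the 1679 mature mouse miRNAs in the RefSeq table, 0 others carried any of them. miR-138-5p, 23 bases long, was the same from both genes. The 3p strands of the mir-138 genes could be laid over each other for 20 bases, of which 18 were equal.

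The hairpins are shown with the mature strands in capitals, to mark where the mir-138 genes are identical and where they differ.
mmu-mir-137: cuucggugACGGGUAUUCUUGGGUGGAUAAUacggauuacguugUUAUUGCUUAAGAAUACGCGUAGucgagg
mmu-mir-138-1: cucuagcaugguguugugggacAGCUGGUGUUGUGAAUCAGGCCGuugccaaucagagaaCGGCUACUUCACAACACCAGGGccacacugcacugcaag
mmu-mir-138-2: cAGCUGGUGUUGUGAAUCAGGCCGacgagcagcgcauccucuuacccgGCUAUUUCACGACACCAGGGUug

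The longest run shared by the mir-138 hairpins was 24 bases and contained the whole of miR-138-5p. Positions are those of GRCm38 with GENCODE vM21. The mir-137 hairpin lies at chr3:118433857-118433929 on the plus strand, inside an exon of the transcript gene Gm26871, and the nearest protein-coding gene, Dpyd, is 128200 bases away. The mir-138-1 hairpin lies at chr9:122682876-122682974 on the plus strand, inside an exon of the transcribed pseudogene Gm47135, 64372 bases from Topaz1. The mir-138-2 hairpin lies at chr8:94324311-94324381 on the plus strand, inside an exon of the lincRNA gene C78859, 4820 bases from Slc12a3. None of the 3 hairpins overlapped a coding gene by this annotation.

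Levels are given as normalized CPM, the count of an entry per 1000000 miRNA counts of its library after scaling by the TMM method. The authors counted each combination of read sequence and molecular tag once and assigned it to a hairpin entry, so that the 5p and 3p strands of an entry are not separated. Total miRNA counts ran from 465387, in the control dHC library 24, to 4819724. All members were abundant. By mean CPM over the 26 libraries, mmu-mir-137 ranked 77 of the 463 entries, mmu-mir-138-1 ranked 109 and mmu-mir-138-2 ranked 117. mir-137 made up 0.166% to 0.417% of the miRNA counts of a library, and both mir-138 entries together made up 0.160% to 0.418%.

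mmu-mir-137 ran from 2133 to 4366 CPM in control vHC, with a median of 3474 (n = 8), and from 2115 to 3266 CPM in swim vHC, with a median of 3087 (n = 6). In control dHC it ran from 2214 to 3868 CPM (median 3040, n = 6), and in swim dHC from 2149 to 3328 CPM (median 2873, n = 6). All 4 groups overlapped, and their lowest values were nearly the same.

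mmu-mir-138-1 ran from 1130 to 1488 CPM in control vHC (median 1339), from 878 to 1758 in swim vHC (median 1248), from 1296 to 2051 in control dHC (median 1613) and from 1200 to 2216 in swim dHC (median 1680). mmu-mir-138-2 ran from 1024 to 1332 CPM in control vHC (median 1170), from 776 to 1552 in swim vHC (median 1117), from 1170 to 1740 in control dHC (median 1432) and from 1078 to 1927 in swim dHC (median 1456). Both medians were higher in each dHC group than in each vHC group, with overlapping ranges. Of the control dHC libraries, library 24, the one with the fewest counts, was the only one whose mmu-mir-138-1 level fell within the range of control vHC.

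**Figure D1:**
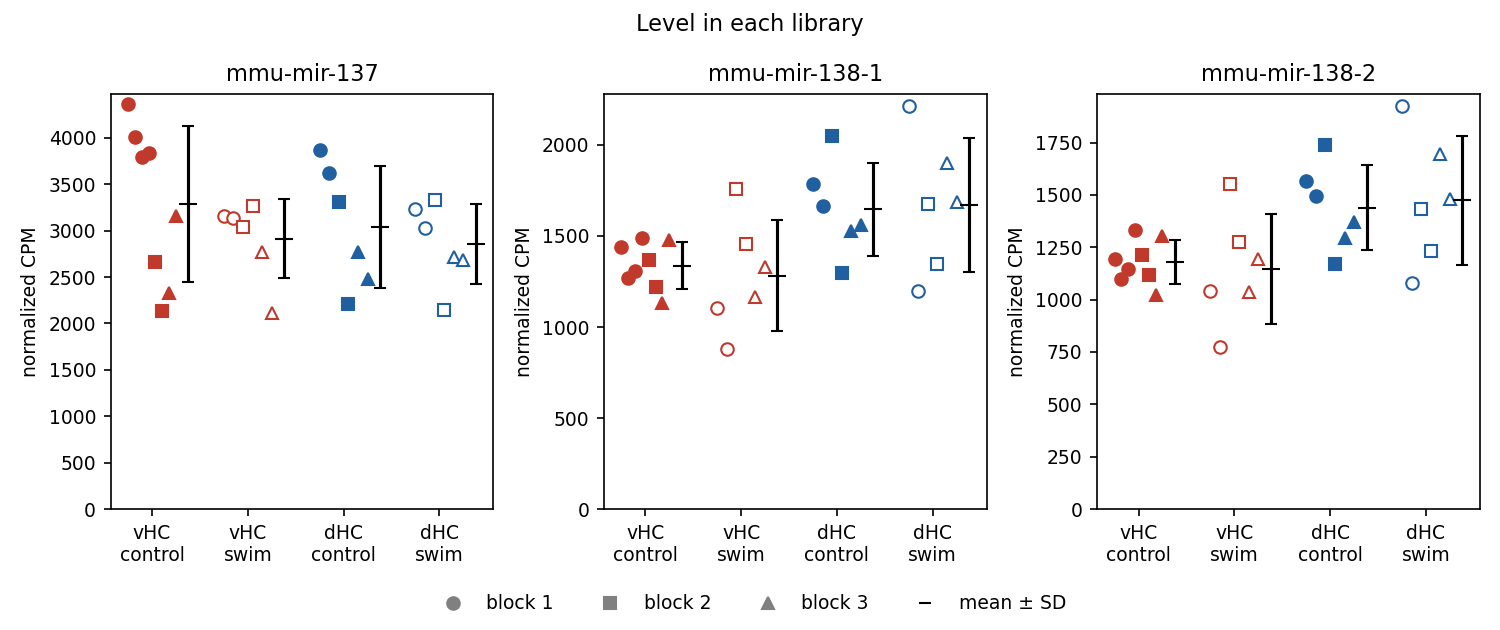
Normalized CPM of mmu-mir-137, mmu-mir-138-1 and mmu-mir-138-2 in each of the 26 libraries, by group; circles, squares and triangles are blocks 1, 2 and 3, filled points control and open points swim mice, and the bars are means ± SD (n = 8 in control vHC and 6 in the other groups). The 4 control vHC libraries of block 1 hold the highest mir-137 levels together with control dHC of block 1, and both mir-138 panels sit higher in dHC than in vHC with overlap.

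The study asked whether miRNAs change 45 mins after the swim. None of the members passed the test for stress in either region. Stress was tested with edgeR's quasi-likelihood test in a model with region, stress, their interaction and 2 surrogate variables, with Benjamini-Hochberg adjustment over the 463 entries and a threshold of 0.05. Across all entries, 0% passed with stress and interaction dropped together, 0% for stress in vHC, 0% for stress in dHC and 0% for the interaction. Before adjustment, p was below 0.05 for 17 entries with both terms dropped, 35 for vHC, 17 for dHC and 22 for the interaction, and DESeq2 with the same terms also called 0.

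In vHC, mmu-mir-137 had a log2 fold change of -0.17 (SE 0.12, 95% confidence interval -0.42 to 0.077, edgeR, Benjamini-Hochberg adjusted p = 0.695). The value for mmu-mir-138-1 was -0.14 (SE 0.093, interval -0.34 to 0.047, edgeR, Benjamini-Hochberg adjusted p = 0.669) and that for mmu-mir-138-2 was -0.12 (SE 0.086, interval -0.30 to 0.054, edgeR, Benjamini-Hochberg adjusted p = 0.693). With block in place of surrogate variables the same differences were -0.078, -0.077 and -0.056, and without control vHC library 1 they were -0.070, -0.074 and -0.066.

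In dHC the differences were smaller than their standard errors. mmu-mir-137 had a log2 fold change of -0.060 (SE 0.13, interval -0.32 to 0.21), mmu-mir-138-1 of -0.045 (SE 0.0996, interval -0.25 to 0.16) and mmu-mir-138-2 of -0.031 (SE 0.092, interval -0.22 to 0.16). All 3 had an adjusted p of 0.998 (edgeR, Benjamini-Hochberg). The dHC effect minus the vHC effect was 0.11 (SE 0.18) for mmu-mir-137, 0.099 (SE 0.14) for mmu-mir-138-1 and 0.092 (SE 0.13) for mmu-mir-138-2, each with an adjusted p of 0.952 (edgeR, Benjamini-Hochberg). With stress and interaction dropped together, the adjusted p was 0.853 for mmu-mir-137, 0.810 for mmu-mir-138-1 and 0.853 for mmu-mir-138-2 (edgeR, Benjamini-Hochberg).

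**Figure D2:**
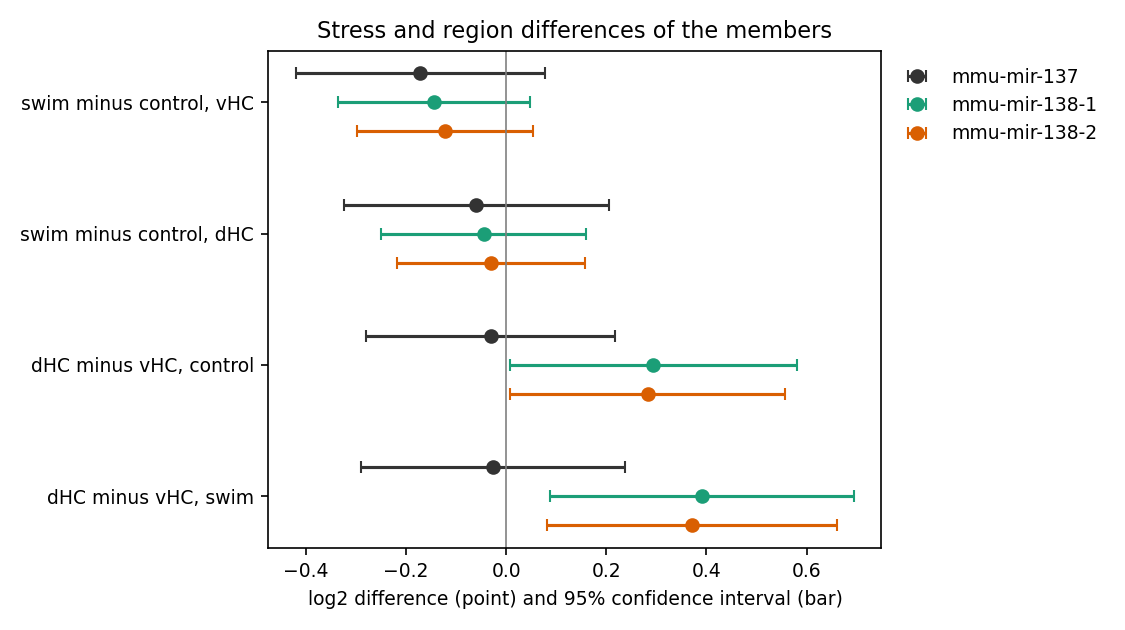
Log2 difference of each entry (points) with its 95% confidence interval (bars) for swim minus control in vHC and dHC and for dHC minus vHC in control and swim mice. The 6 stress intervals include 0, as do the mir-137 region intervals, and the 4 mir-138 region intervals lie above 0 before adjustment for the 463 entries.

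The stress difference in vHC did not have the same sign in every block. For mmu-mir-137, the mean log2 CPM of swim minus control in vHC was -0.34, 0.40 and -0.16 in blocks 1, 2 and 3. For mmu-mir-138-1 the same differences were -0.48, 0.31 and -0.054, and for mmu-mir-138-2 they were -0.40, 0.27 and -0.055. In block 1 both swim vHC libraries lay below all 4 control vHC libraries for mir-137 and for both mir-138 entries, and in block 2 the swim libraries lay above the controls. A test of whether the stress effect differed between blocks, added after these values were seen, called 0.216% of all entries (1 of 463, with 29 below 0.05 before adjustment) and gave mmu-mir-137 an unadjusted p of 0.0535 and an adjusted p of 0.603 (edgeR, Benjamini-Hochberg). For mmu-mir-138-1 the adjusted p was 0.842 and for mmu-mir-138-2 it was 0.855 (edgeR, Benjamini-Hochberg). In dHC the blocks gave -0.26, -0.017 and 0.044 for mmu-mir-137, -0.080, -0.12 and 0.21 for mmu-mir-138-1, and -0.088, -0.11 and 0.25 for mmu-mir-138-2.

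Between dHC and vHC, the fitted levels of both mir-138 entries were 1.22-fold to 1.31-fold higher in dHC, a difference that missed the threshold after adjustment in either condition. mir-137 differed by less than its standard error. This comparison was fitted with block in place of surrogate variables, because region accounted for 91.4% of the variance of the second surrogate variable. In control mice, mmu-mir-138-1 had a log2 difference, dHC minus vHC, of 0.29 (SE 0.14, interval 0.0076 to 0.58), 1.23-fold, with an unadjusted p of 0.0438 and an adjusted p of 0.125 (edgeR, Benjamini-Hochberg). The value for mmu-mir-138-2 was 0.28 (SE 0.13, interval 0.0085 to 0.56), 1.22-fold, with an adjusted p of 0.124 (edgeR, Benjamini-Hochberg). In swim mice, mmu-mir-138-1 had 0.39 (SE 0.15, interval 0.087 to 0.69), 1.31-fold, with an unadjusted p of 0.0140 and an adjusted p of 0.0635, and mmu-mir-138-2 had 0.37 (SE 0.14, interval 0.080 to 0.66), 1.29-fold, with an adjusted p of 0.0651 (edgeR, Benjamini-Hochberg).

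mmu-mir-137 had a region difference of -0.031 (SE 0.12, interval -0.28 to 0.22) in control mice, with an adjusted p of 0.897, and of -0.027 (SE 0.13, interval -0.29 to 0.24) in swim mice, with an adjusted p of 0.948 (edgeR, Benjamini-Hochberg). Its sign in control mice depends on the scaling, and it was 0.021 with DESeq2 size factors. Over all 463 entries, 22.5% were called in control mice, 7.78% higher in dHC and 14.7% lower, and 20.3% in swim mice, 7.56% higher and 12.7% lower. With DESeq2 size factors the split in control mice was 66 higher and 64 lower, beside 36 and 68 with TMM.

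Of the members, 0 of 3 were called in control mice and 0 of 3 in swim mice, but the mir-138 result lay close to the threshold and moved across it with the processing. With DESeq2 size factors mmu-mir-138-1 was called higher in dHC in control mice (0.34, adjusted p = 0.0389) and in swim mice (0.40, adjusted p = 0.0302), by edgeR with Benjamini-Hochberg adjustment. With the mir-138 entries summed to 1, as were the copies of all other miRNAs, the difference was 0.33 (SE 0.13, adjusted p = 0.0554) in control mice and 0.40 (SE 0.14, adjusted p = 0.0333) in swim mice (edgeR, Benjamini-Hochberg, 401 entries). Averaged over control and swim mice, a comparison added after the values were seen, it was 0.34 for mmu-mir-138-1 (SE 0.10, interval 0.13 to 0.55, adjusted p = 0.00926) and 0.33 for mmu-mir-138-2 (SE 0.097, interval 0.13 to 0.53, adjusted p = 0.00936) by edgeR with Benjamini-Hochberg adjustment. That comparison called 36.1% of all entries, 17.5% higher in dHC and 18.6% lower. mmu-mir-137 had -0.029 there (SE 0.088, adjusted p = 0.845, edgeR, Benjamini-Hochberg).

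With the 2 surrogate variables in place of block, the sign of mir-138 turned. mmu-mir-138-1 then had -1.21 (SE 0.28, adjusted p = 0.00529) in control mice and -1.11 (SE 0.28, adjusted p = 0.0106) in swim mice, and mmu-mir-138-2 had -1.19 (adjusted p = 0.00277) and -1.10 (adjusted p = 0.00728), by edgeR with Benjamini-Hochberg adjustment. These values compare the regions at equal surrogate variables, the second of which follows region. The median over all entries moved to -0.24 in control mice and -0.18 in swim mice in that fit. Surrogate variables estimated without region in the null model gave 0.31 and 0.37 for mmu-mir-138-1, and a model with neither gave 0.30 and 0.38. The levels themselves, in every group median above, were higher in dHC.

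**Figure D3:**
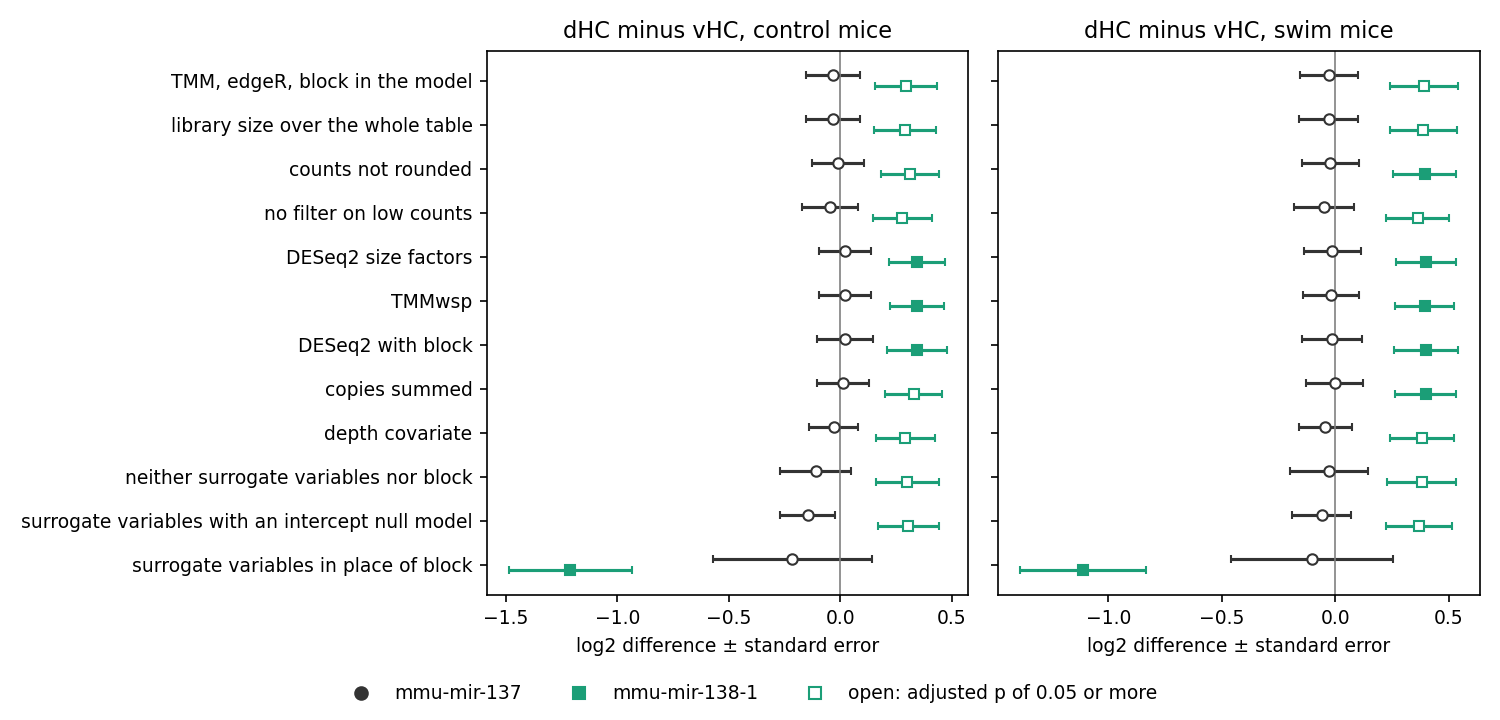
Log2 difference of dHC minus vHC (points) ± standard error (bars) for mmu-mir-137 and mmu-mir-138-1 in control and swim mice, one line per processing; filled points have an adjusted p under 0.05. mir-138-1 lies between 0.28 and 0.40 under every processing drawn except surrogate variables in place of block, where it lies at -1.21 and -1.11, and mir-137 is open throughout.

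In control mice the blocks had the same sign. The difference of mean log2 CPM, dHC minus vHC, was 0.33, 0.33 and 0.26 for mmu-mir-138-1 in blocks 1, 2 and 3, and 0.36, 0.29 and 0.21 for mmu-mir-138-2. In swim mice they were 0.73, -0.090 and 0.52 for mmu-mir-138-1 and 0.68, -0.085 and 0.51 for mmu-mir-138-2, so that block 2 gave no increase. For mmu-mir-137 the blocks gave -0.095, 0.18 and -0.046 in control mice and -0.011, -0.24 and 0.16 in swim mice. Without control dHC library 24, mmu-mir-138-1 was called in control mice with 0.38 (adjusted p = 0.0291) and mmu-mir-138-2 with 0.36 (adjusted p = 0.0301), by edgeR with Benjamini-Hochberg adjustment. In control mice mmu-mir-138-2 was also called without swim dHC library 16 (0.33, adjusted p = 0.0487). In swim mice both mir-138 entries were called when any of control vHC libraries 1, 7, 9, 17 and 23, control dHC libraries 8 and 24, swim dHC libraries 16 and 22 or swim vHC library 19 was left out, with values from 0.38 to 0.49. Leaving out some of the other libraries raised the adjusted p. For mmu-mir-138-1 it reached 0.258 in control and 0.188 in swim mice, and for mmu-mir-138-2 0.244 and 0.191 (edgeR, Benjamini-Hochberg).

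Markers of other cells also differed by region, beside 22.5% of all 463 entries called in control mice and 20.3% in swim mice. The lists are short, and their counts were not tested against these shares. The oligodendrocyte list, mir-219a and mir-338, had 3 of 3 entries higher in dHC in control and in swim mice, and its summed level ran from 3321 to 4939 CPM in vHC and from 4329 to 7617 in dHC. The muscle and liver lists had been set as ones that should be absent, but both had entries that passed the filter. Of 4 tested muscle entries, 2 were higher in dHC in both conditions. These were the copies of mir-1a, which had nearly equal levels and are not independent. The summed level of the muscle list was 698 to 1182 CPM in vHC and 1072 to 1654 in dHC. Its heart-type members mir-208a and mir-208b did not pass the filter. Of 6 choroid plexus entries, 3 were higher and 3 lower in dHC in control mice, and 1 was higher and 3 lower in swim mice, with summed levels of 2213 to 2906 CPM in vHC and 1720 to 5196 in dHC. Of 4 red blood cell entries, 2 were lower in control mice and 1 in swim mice, and their summed level was 749 to 998 CPM in vHC and 645 to 951 in dHC. The immune list (0 of 4; 560 to 1138 CPM in vHC, 835 to 1305 in dHC), the vascular list (0 of 3) and liver mir-122 (at most 20.1 CPM) had no call by region, and no list had a call for stress. No entry of any list was at 0 in all libraries. In bulk tissue, fewer cells of a type and less miRNA per cell cannot be told apart, and the part of these cells in the mir-138 difference was not tested.

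The other neuronal marker miRNAs had region differences on both sides of 0. mir-124, mir-9 and mir-128 have 8 entries, among them copies of mir-124 and of mir-9 with nearly equal levels. Of the 8, 0 were called by region in control or swim mice, beside 22.5% and 20.3% of all entries. So few entries, many of them copies, cannot show a departure from these shares. mmu-mir-124-1 had a region difference of 0.23 (SE 0.12) in control and 0.13 (SE 0.12) in swim mice, mmu-mir-9-1 of 0.0050 (SE 0.16) and -0.035 (SE 0.17), and mmu-mir-128-1 of -0.31 (SE 0.13) and -0.30 (SE 0.13). Their median was 0.0051 in control mice and -0.035 in swim mice, beside a median of 0.0055 and -0.00015 over all entries. With copies counted separately, the median of the 8 entries falls on the mir-9 values, between those of mir-124 and mir-128. The summed level of the 8 entries ran from 181283 to 237194 CPM in vHC and from 156385 to 328933 in dHC, so the defining neuronal miRNAs were abundant in every library.

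Because mir-137 and mir-138 were counted in the same libraries, their ratio does not depend on the scaling. The log2 ratio of the mir-137 count to the summed mir-138 count ran from -0.13 to 0.76 in control vHC (mean 0.35 ± 0.34 SD, n = 8) and from -0.25 to 0.92 in swim vHC (0.28 ± 0.43 SD, n = 6). It ran from -0.24 to 0.21 in control dHC (-0.036 ± 0.20 SD, n = 6) and from -0.40 to 0.41 in swim dHC (-0.12 ± 0.32 SD, n = 6). The ranges overlapped. The highest vHC ratios lay in block 1, where the 6 vHC libraries ran from 0.44 to 0.92 (mean 0.67), whereas the 4 vHC libraries of block 2 averaged 0.011 and the 4 of block 3 averaged 0.092. The 4 dHC libraries of each block averaged 0.11, -0.13 and -0.23 in blocks 1, 2 and 3, below the vHC mean in every block. Of the 8 control vHC libraries, 4 belonged to block 1.

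In control mice the ratio was lower in dHC by a difference of -0.38 (two-sided exact permutation test, p = 0.0346, Benjamini-Hochberg adjusted p = 0.139 over 4 comparisons). Left out in turn, any of control vHC libraries 1, 7, 9 and 13 or control dHC libraries 18, 24, 26 and 32 moved this exact p to between 0.0559 and 0.0730. With labels permuted within blocks only, which allows 540 arrangements, the difference was -0.28 with an exact p of 0.00185, the smallest these arrangements can give, and an adjusted p of 0.00741. The blocks gave -0.44, -0.13 and -0.28. In swim mice the difference was -0.41 (exact permutation p = 0.0909, adjusted p = 0.182), and within blocks the exact p was 0.0648 (adjusted p = 0.130), with -0.72, -0.15 and -0.36 in the 3 blocks. The swim difference had an exact p of 0.0346 without swim dHC library 16 and of 0.0433 without swim vHC library 29.

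Stress did not shift the ratio beyond the spread between libraries. The difference, swim minus control, was -0.064 in vHC (exact permutation p = 0.757) and -0.089 in dHC (exact permutation p = 0.578), each with an adjusted p of 0.757. Within blocks the vHC difference was 0.034 (exact permutation p = 0.796).

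**Figure D4:**
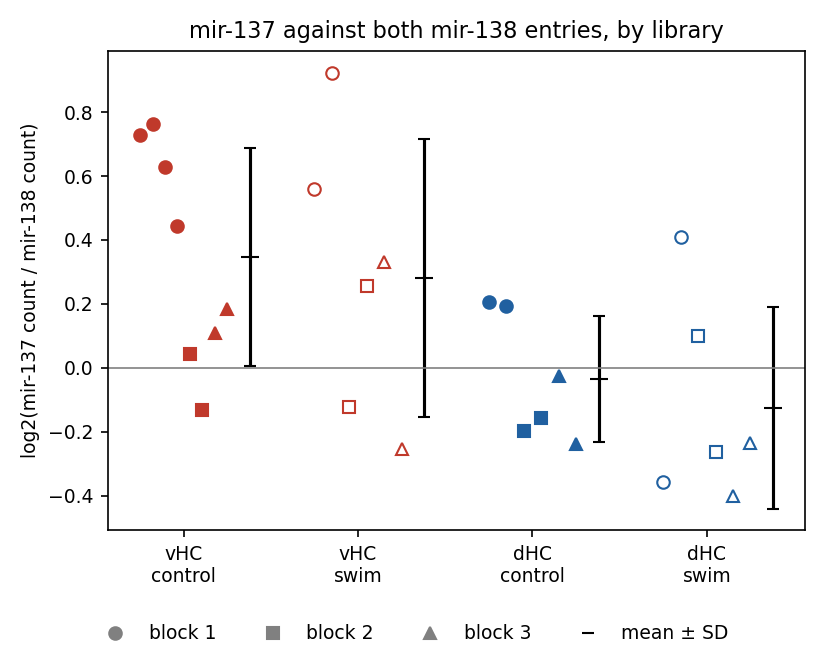
Log2 ratio of the mir-137 count to the summed mir-138 count in each library, by group; circles, squares and triangles are blocks 1, 2 and 3, filled points control and open points swim mice, and bars are means ± SD. Group means are 0.35 and 0.28 in vHC and -0.036 and -0.12 in dHC, and most block 1 libraries lie above those of blocks 2 and 3.

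Among the fitted contrasts, those of blocks 2 and 3 against block 1 gave the largest differences of mir-137. Its level ran from 3026 to 4366 CPM in block 1 (mean 3605 ± 447 SD, n = 10), from 2133 to 3328 in block 2 (2762 ± 538 SD, n = 8) and from 2115 to 3156 in block 3 (2628 ± 318 SD, n = 8). Blocks 2 and 3 overlapped over most of their range. Block 3 lay mostly below block 1, whereas several block 2 libraries lay within the block 1 range. Block 2 minus block 1 was -0.37 (SE 0.11, adjusted p = 0.00641), block 3 minus block 1 was -0.44 (SE 0.11, adjusted p = 0.00144) and block 3 minus block 2 was -0.076 (SE 0.11, adjusted p = 0.906), by edgeR with Benjamini-Hochberg adjustment. With both block terms dropped the adjusted p of mmu-mir-137 was 0.00181 (edgeR, Benjamini-Hochberg), in a test that called 53.1% of all entries.

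mir-138 did not pass the block test. mmu-mir-138-1 averaged 1435 ± 381 SD CPM in block 1, 1522 ± 283 SD for block 2 and 1472 ± 259 SD for block 3, and the adjusted p was 0.805 for each mir-138 entry (edgeR, Benjamini-Hochberg). Block 2 minus block 1 was 0.085 for mmu-mir-138-1 (interval -0.17 to 0.34), and block 3 minus block 1 was 0.017 (interval -0.24 to 0.27). The log2 ratio of mir-137 to mir-138 accordingly averaged 0.45 ± 0.37 SD in block 1, -0.059 ± 0.18 SD for block 2 and -0.067 ± 0.26 SD for block 3.

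The mir-138 entries had similar counts. mmu-mir-138-1 exceeded mmu-mir-138-2 in 26 of 26 libraries, by 44 to 1347 counts with a median of 421.5, which was 2.98% to 9.20% of their sum. In 13 libraries both values ended in 0.5 and in 13 both were whole, and the difference of the entries was a whole number in 26 of 26. The mir-137 count was whole in 26 of 26. The table does not separate sequences common to both entries from those of a single entry. Because both hairpins hold the same miR-138-5p, the level of a single mir-138 gene is uncertain and the entries are not independent measurements. Their ratio is given as a description of the counting. The log2 ratio of mmu-mir-138-1 to mmu-mir-138-2 averaged 0.18 ± 0.043 SD in control vHC, 0.16 ± 0.038 in swim vHC, 0.19 ± 0.039 in control dHC and 0.18 ± 0.035 in swim dHC. By exact permutation tests, p ran from 0.379 to 0.627 over the 4 comparisons of stress and region, with an adjusted p of 0.627 for each.

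Across the 26 libraries the log2 CPM of the mir-138 entries had a Pearson r of 0.99. Since sequences common to both entries are not separated, this r cannot tell whether the mir-138 genes vary together. mir-137 and summed mir-138 had an r of 0.20, and of 0.57 after the group and block means were removed. The entries whose profile was most like that of mir-137, out of 460 compared, were mmu-mir-496a (r = 0.79, and 0.60 after removal of group and block means), mmu-mir-544 (0.79 and 0.70) and mmu-mir-551b (0.77 and 0.59). For summed mir-138 they were mmu-mir-3102 (0.83 and 0.85), mmu-mir-365-1 (0.79 and 0.81) and mmu-mir-365-2 (0.79 and 0.81). These correlations are descriptions over libraries that share blocks, groups and scaling, and no test was made of them.

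Other miRNAs with known roles at synapses were taken from a list of 20 names, which had 29 entries, all tested. Of these, 0 were called for stress in vHC, 0 in dHC and 0 with both terms dropped. The smallest p in vHC belonged to mmu-mir-132, a miRNA induced by neuronal activity (log2 fold change -0.19, SE 0.093), and to mmu-mir-485, which acts on presynaptic vesicle proteins (-0.18, SE 0.10). In dHC the smallest p belonged to mmu-mir-125b-1 (-0.23, SE 0.11) and mmu-mir-125b-2 (-0.22, SE 0.10), each with an adjusted p of 0.982 (edgeR, Benjamini-Hochberg). With both terms dropped it belonged to mmu-mir-186 and mmu-mir-125b-1, each with an adjusted p of 0.719 (edgeR, Benjamini-Hochberg).

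By region in control mice, beside 7.78% of all 463 entries higher in dHC and 14.7% lower, 0 of the 29 were higher and 2 were lower. These were mmu-mir-485, by -0.83 (SE 0.13, adjusted p = 1.58e-05), and mmu-mir-501, by -0.32 (SE 0.12, adjusted p = 0.0487), by edgeR with Benjamini-Hochberg adjustment. In swim mice 4 were higher and 4 lower, beside 7.56% and 12.7% of all entries. The higher ones were the copies of mir-129 and mir-92a, and both mir-135a copies were among the lower ones. The called entries with the smallest p were mmu-mir-485 (-0.64, SE 0.13), mmu-mir-135a-2 (-0.55, SE 0.13), mmu-mir-92a-2 (0.53, SE 0.12) and mmu-mir-135a-1 (-0.54, SE 0.14). The median region difference of the list was 0.076 in control and 0.11 in swim mice. The mmu-mir-138-1 differences, 0.29 in control and 0.39 in swim mice, were smaller than every called difference of this list in the same condition. Called entries are picked for large differences, so this order cannot place mir-138 within the list.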

How the data were processed

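Small RNA libraries (Nextflex v3) were prepared by the authors from hippocampal RNA, in 3 batches. Per the labels and methods, adapters were removed with cutadapt, reads with equal sequence and molecular tag were merged, and the authors used Sports to quantify annotated RNAs. The values deposited are expected counts per entry, not normalized, of which 29.5% were not whole. GRCm38 is named in the submitters' processing notes. The table had 1360 entries and 0 columns without a sample.

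Counts were rounded, since whole counts had been assumed, and filterByExpr over the 4 groups, with a minimum count of 10 and a minimum total of 15, kept 463 of 1054 miRNA entries. Library size was the miRNA sum, scaled by TMM. Quasi-likelihood tests used edgeR 4.0.16 in R 4.3.3 with all 26 libraries. Stress was fitted with 2 surrogate variables (sva 3.50.0, null model with region), region and block with block as a factor. DESeq2 1.42.0 was an alternative. Ratios were compared by exact permutation tests (scipy 1.17.1). Log2 CPM used a prior count of 2. Depth sets the precision, which is given by the standard errors and 95% intervals, and both cover the spread between libraries. No columns were identical, and replicates differed by more than sampling noise (lowest chi-square per degree of freedom 10.4 over 73 pairs). Alternatives changed the scaling, tool, filter, rounding, library size, covariates, libraries used and handling of copies.

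The members, lists and tests were chosen with earlier results of these data known. The rule for naming entries was the 3 most correlated with each miRNA, and from the synaptic list those called, at most 4 with the smallest p in a contrast, or otherwise the 2 with the smallest p. Nothing in the labels says which libraries share a mouse, so dHC and vHC were treated as independent and p-values measure the spread between libraries.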

Additional observations from a re-analysis of the deposited data

Results flagged for a closer look

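The log2 ratio of mmu-mir-138-1 to mmu-mir-138-2 in swim vHC library 5 was 0.0861, whereas the other swim vHC libraries lay between 0.159 and 0.192. This library stood apart from its group of 6 by its gap to the nearest other value, 0.689 of the group's range. About 1 in 20 groups would show such a gap by chance, and 1 of 20 groups looked at did.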

How the results depend on the processing

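Of 888 tested values under alternative processing, 797 kept their side of the threshold and, where they have one, their direction. Of 256 counts of called entries, 252 stayed within 1.5 times the reported count. Both totals include the average over control and swim mice, set against the comparison in control mice. Of 36 differences within a single block, which have no test, 10 had the other sign and 9 moved by more than the spread between libraries. No alternative gave a call for stress or for the interaction. The mir-138 region difference depended on the processing most. In control mice mmu-mir-138-1 and mmu-mir-138-2 were called with DESeq2 size factors (0.34 and 0.33), TMMwsp (0.35 and 0.34) and DESeq2 (0.34 and 0.33). The average over control and swim mice, a different comparison chosen after seeing the data, also called both (0.34 and 0.33). In swim mice they were called with DESeq2 size factors (0.40 and 0.38), TMMwsp (0.39 and 0.37), DESeq2 (0.40 and 0.38), unrounded counts (0.39 and 0.37) and summed copies (0.40). Surrogate variables in place of block turned both, to -1.21 and -1.19 in control and to -1.11 and -1.10 in swim mice, and the second of these variables follows region. The mmu-mir-137 region difference in control mice became 0.021 with DESeq2 size factors, 0.022 with TMMwsp, 0.021 with DESeq2 and 0.013 with summed copies, with the cause not tested.

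The stress difference in dHC of mmu-mir-138-1 and mmu-mir-138-2 became 0.0080 with summed copies, 0.019 and 0.032 with neither surrogate variables nor block, 0.020 and 0.033 with block, and 0.0074 and 0.026 with an intercept null model. The count of entries called by region in control mice was 67 with neither term, beside 104. In swim mice it was 56 with neither term and 58 with surrogate variables, beside 94. Averaged over control and swim mice, a different comparison, 167 entries were called. Within single blocks, the stress difference in vHC was 0.40 for mmu-mir-137 in block 2, -0.48 and 0.31 for mmu-mir-138-1 in blocks 1 and 2, and -0.40 and 0.27 for mmu-mir-138-2. In dHC block 3 gave 0.21 and 0.25, and the region difference in swim mice of block 2 was -0.090 and -0.085. The vHC stress difference of the ratio of mir-137 to mir-138 was 0.034 within blocks.

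With each library left out in turn, the region difference of mmu-mir-137 ran from -0.082 to 0.050 in control and from -0.12 to 0.038 in swim mice. That of mmu-mir-138-1 ran from 0.24 to 0.38 and from 0.27 to 0.49, and that of mmu-mir-138-2 from 0.24 to 0.36 and from 0.26 to 0.46. The stress difference in vHC ran from -0.22 to -0.059 for mmu-mir-137, from -0.23 to -0.064 for mmu-mir-138-1 and from -0.20 to -0.047 for mmu-mir-138-2. That of mmu-mir-138-2 in dHC ran from -0.073 to 0.0063. The interaction ran from -0.040 to 0.17 for mmu-mir-137, from -0.0075 to 0.17 for mmu-mir-138-1 and from -0.00045 to 0.16 for mmu-mir-138-2. The log2 ratio of mir-137 to mir-138 ran from -0.19 to 0.043 for stress in vHC, from -0.45 to -0.32 for region in control and from -0.51 to -0.28 for region in swim mice. No paired analysis was made, because each library number is used once and no label links a dHC to a vHC library of the same mouse. Most libraries form couples of consecutive numbers, a vHC and a dHC library of the same condition and block. Whether these couples share a mouse is not stated, and the region p-values take no account of pairing. The small number of libraries per block, library 24 with 465387 miRNA counts and the shared sequence of the mir-138 entries limit the precision.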
